A study of Rattus norvegicus with 6 samples.

Results

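Messenger RNA of the alcohol and aldehyde dehydrogenases was examined in the livers of 6 male Sprague-Dawley rats, 3 given 1000 mg/kg/day of the metal chelator NTA (nitrilotriacetic acid trisodium monohydrate) and 3 given vehicle. The labels name purified water as the vehicle in one place and corn oil in another, and give the sampling time as 28 days in one place and the dosing period as 9 weeks in another. The conflict remained unresolved. The rats were 5 weeks old when bought. All 6 were of the outbred stock Crl:CD(SD) on a basal diet, and each array was taken as 1 rat. Each liver RNA was labelled with Cy3 and hybridised to its own Agilent rat array. The genes were given as a list of 10 symbols. A probe counted as a member if its RefSeq accession belongs to one of these genes. That rule found 18 of 61657 non-control probes, for 9 of the 10 genes, out of 15284 genes with a probe. The listed gene Adh1 carries the symbol Adh1c in the current rat gene table and is called Adh1c below. No probe was matched to Aldh7a1, which breaks down lysine and is not analysed here. All 18 probes were well above background on all 6 arrays, so every member with a probe passed the filter on dim signals.

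Alcohol dehydrogenases (ADH) oxidise ethanol, retinol and other alcohols to aldehydes with NAD as the acceptor, and aldehyde dehydrogenases (ALDH) oxidise the aldehydes on to acids. The liver holds most of the body's capacity for both steps. Cytosolic Adh1c and Adh4 start the route for ethanol, and mitochondrial Aldh2 and Aldh1b1 clear the acetaldehyde. Aldh1a1 makes retinoic acid from retinaldehyde, Aldh3a2 handles long-chain fatty aldehydes, Aldh9a1 takes part in carnitine synthesis, and Aldh1l1 is the cytosolic enzyme that oxidises 10-formyltetrahydrofolate. Aldh3a1 is scarce in normal rat liver and is known to be induced there by dioxin-like compounds and in liver tumours.

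Promoter sequence is shown for the member with the smallest p, Aldh1l1, and for Aldh1a1 and Adh4, the members that varied most between rats within a group. Each is the 250 bases before the annotated start, 5′ to 3′ on the gene's strand, from RefSeq on build GRCr8. They lie at chr4:124616970-124617219, chr1:227537370-227537619 and chr2:229621842-229622091, all on the + strand, and the capitals mark CCAAT on either strand (ATTGG on the other).
Aldh1l1: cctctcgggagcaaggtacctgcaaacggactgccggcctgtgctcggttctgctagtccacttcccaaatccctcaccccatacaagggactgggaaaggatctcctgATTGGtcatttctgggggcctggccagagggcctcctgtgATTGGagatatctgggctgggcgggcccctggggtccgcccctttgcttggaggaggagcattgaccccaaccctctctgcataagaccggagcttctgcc
Aldh1a1: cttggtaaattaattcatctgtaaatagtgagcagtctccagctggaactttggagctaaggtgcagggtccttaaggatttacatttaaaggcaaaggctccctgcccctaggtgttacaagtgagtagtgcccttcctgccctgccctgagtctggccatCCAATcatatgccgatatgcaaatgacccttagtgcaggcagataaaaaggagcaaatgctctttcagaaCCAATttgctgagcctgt
Adh4: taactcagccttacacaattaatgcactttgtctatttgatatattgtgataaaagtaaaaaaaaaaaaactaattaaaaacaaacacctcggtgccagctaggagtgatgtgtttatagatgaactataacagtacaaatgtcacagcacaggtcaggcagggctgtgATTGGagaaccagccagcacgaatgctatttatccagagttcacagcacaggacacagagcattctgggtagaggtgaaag
Of the 10 listed genes 8 have an entry in the promoter table. Aldh2 and Aldh3a1 have none, so their promoters were not searched, while that of Aldh7a1, which has no probe here, was. CCAAT was searched after the sequences had been read. All 8 promoters hold it, and so do 34.0% of the 33469 promoters in the table. GCGTG, the core of the site bound by the aryl hydrocarbon receptor (AhR), was found in 3 of the 8, those of Aldh3a2, Aldh7a1 and Aldh9a1, against 25.9% of all promoters. The antioxidant response letters TGACNNNGC and the direct repeat of AGGTCA with 1 base between its copies were found in 0 of the 8, against 10.1% and 0.051% of all promoters. Both strands were searched for every motif, and a match is a match of letters only.

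None of the 9 genes passed the test between NTA and vehicle. Levels are given in log2 units above or below the 75th percentile of their array, so that 1 unit is a doubling, with n = 3 rats per group. In bulk tissue, fewer cells of a type and less RNA per cell cannot be told apart. Aldh1l1 was higher in all 3 NTA rats, Aldh1b1 was lower on average, Aldh1a1 was high in only 2 of the 3 NTA rats, and the groups overlapped for the ethanol route enzymes Aldh2 and Adh1c. Limma called 0 of the 9 at a Benjamini-Hochberg adjusted p under 0.05, with adjusted p between 0.516 and 0.999, where 0.0297% of all 30353 features tested were called. At an unadjusted p under 0.05 there were 2 members, 1 higher and 1 lower, against 7.57% of all features (3.66% higher and 3.91% lower). These were Aldh1l1 and Aldh1b1. Aldh1l1 had an unadjusted p under 0.05 in all 18 alternatives, and Aldh1b1 did not in 8 of them. Many of these alternatives leave a gene's difference as it was or nearly so, and are named in the closing section. Adh1c was added with normexp background correction, and Aldh1a1 and Adh4 were added without NTA replicate 3. The median log2 difference, NTA minus vehicle, was 0.18 over the 9 genes with 7 above 0. Over all features the median was −0.03, with 43.9% above 0. Without NTA replicate 2 the median of the 9 genes was −0.030. All NTA arrays shared 1 slide that held no vehicle array, and the effects of slide and of treatment cannot be told apart. A miss of the threshold with 3 rats per group does not show that a gene was equal in both groups, and the 95% intervals below give the range of differences each gene allows.

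**Figure D1:**
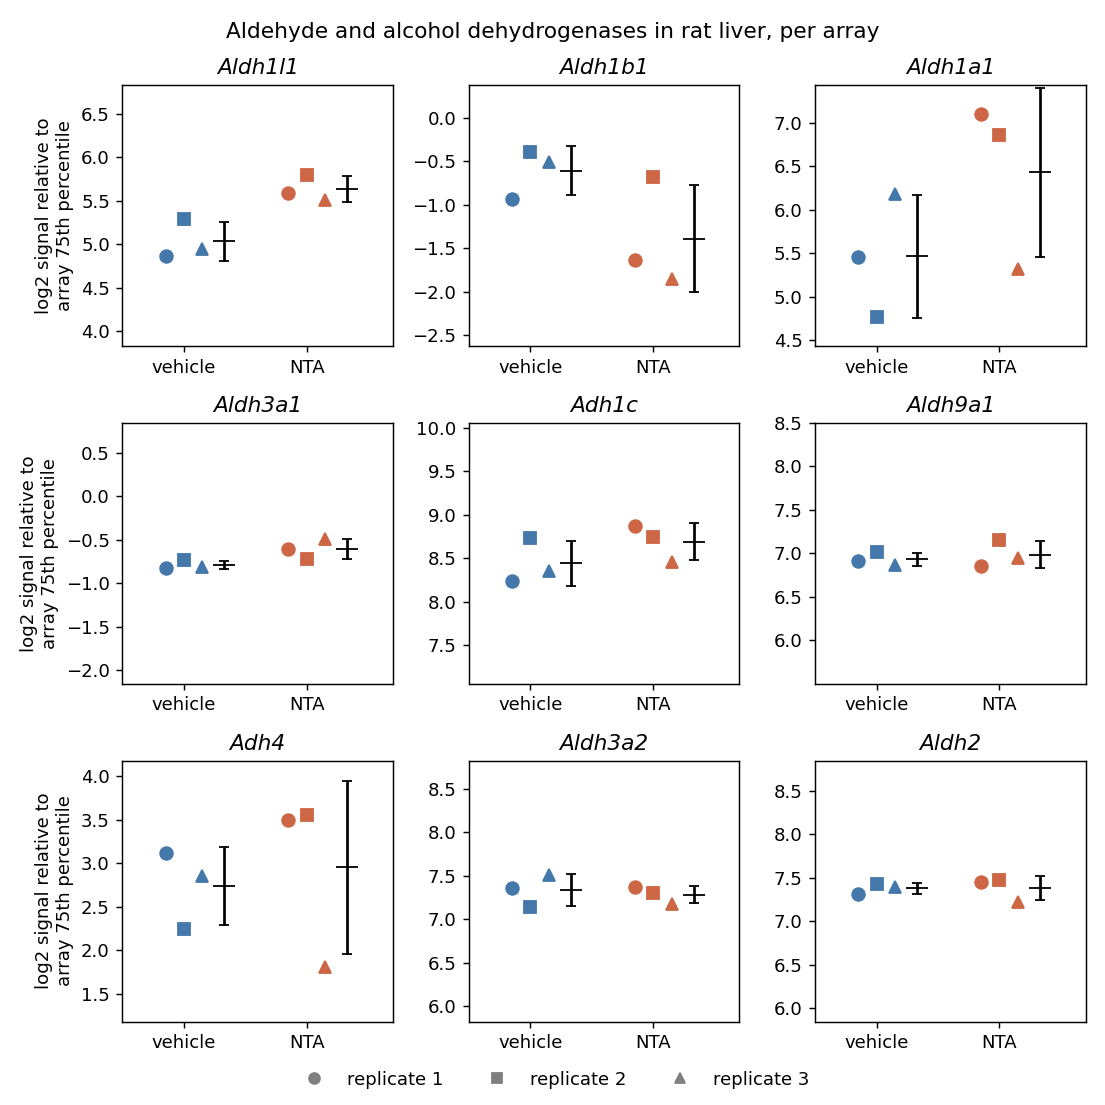
Levels of the 9 genes by group, as log2 of signal over the 75th percentile of the array. Each point is 1 rat, marked by replicate number, and the bar beside each group is the mean with its SD; every panel spans 3 log2 units on its own axis. In the panels of Aldh1a1 and Adh4 NTA replicate 3 (triangle) lies below the other 2 NTA rats, at 5.32 and 1.80, while Aldh2 and Aldh9a1 stay within a narrow band.

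Aldh1l1, which removes one-carbon units from the folate pool, had the smallest p of the family. The vehicle rats were at 4.86, 5.29 and 4.95 and the NTA rats at 5.59, 5.80 and 5.50. Every NTA rat lay above every vehicle rat. The means were 5.03 ± 0.23 with vehicle and 5.63 ± 0.15 with NTA (SD, n = 3), a 1.52-fold difference with a 95% interval of 1.18 to 1.95 that is not corrected for the number of genes tested (log2 0.60, SE 0.15; limma, unadjusted p = 0.0065, Benjamini-Hochberg adjusted p = 0.516). Groups that did not overlap, with NTA higher, were seen in 2 of the 9 genes and in 5.57% of all features, and with NTA lower in 0 of the 9 and in 8.03%. With 1 array left out the log2 difference of Aldh1l1 ran from 0.52 to 0.73, and with normexp it was 0.51. Aldh1l1 has 1 probe here, so no other probe could be compared. Among 10838 other named genes above background on all arrays, the 3 whose values ran most like those of Aldh1l1 over the 6 arrays were Nfs1, the mitochondrial cysteine desulfurase that supplies sulfur for iron-sulfur clusters, Mtnr1a, a melatonin receptor, and Or51b6, an olfactory receptor. Their Pearson correlations with it were 0.989, 0.978 and 0.978, with 6 points that share arrays and scaling. Nfs1 was at 3.36 to 3.53, while Mtnr1a and Or51b6 were dim, at −5.19 to −4.55 and −4.25 to −3.63. The lowest signal well above background lay between −5.45 and −5.17 on the 6 arrays. Of the genes searched 89 had a correlation over 0.9. The log2 differences of Nfs1, Mtnr1a and Or51b6 were 0.12, 0.39 and 0.41, and none of these passed the test (limma, Benjamini-Hochberg adjusted p between 0.544 and 0.811).

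Aldh1l2, the mitochondrial counterpart of Aldh1l1, was on the opposite side of 0, at −0.26 (SE 0.15; limma, adjusted p = 0.736). Its vehicle rats were at 4.46, 4.33 and 4.27 and its NTA rats at 3.88, 4.34 and 4.04, so the groups overlapped. Aldh1l2 is named here after its values were seen, and whether the 2 genes differ in response was not tested.

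Aldh1a1, the retinaldehyde dehydrogenase, had the widest spread between rats. The vehicle rats were at 5.46, 4.76 and 6.18 and the NTA rats at 7.10, 6.86 and 5.32. NTA replicates 1 and 2 lay above all vehicle rats, while NTA replicate 3 lay below 2 of the 3 vehicle rats. The means were 5.47 ± 0.71 and 6.43 ± 0.97 (SD, n = 3), 1.95-fold apart (95% interval 0.782 to 4.85; log2 difference 0.96 with SE 0.55; adjusted p in limma 0.742). The second probe gave the same picture, at 3.58, 2.84 and 4.09 with vehicle and 5.11, 4.84 and 2.86 with NTA, and a log2 difference of 0.77. Without NTA replicate 3 the difference of the first probe was 1.52 and without vehicle replicate 2 it was 0.61. Neither passed the test (limma, adjusted p = 0.638 and 0.909). Aldh1a7, a near relative of Aldh1a1 in rodents, is not in the gene table, and cross-hybridisation of the probes was not tested.

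Adh4, the class II alcohol dehydrogenase, also ran low in NTA replicate 3. The vehicle rats were at 3.12, 2.25 and 2.85 and the NTA rats at 3.50, 3.56 and 1.80. NTA replicates 1 and 2 were the highest of the 6 rats and NTA replicate 3 was the lowest. All 3 Adh4 probes put NTA replicate 3 lowest, from 0.94 to 1.06 below the vehicle mean. The group means were 2.74 ± 0.45 and 2.95 ± 1.00 (SD, n = 3; log2 difference 0.21, SE 0.50, 95% interval −0.99 to 1.41; limma, Benjamini-Hochberg adjusted p = 0.944). Without NTA replicate 3 the difference was 0.79, and without vehicle replicate 2 or either of the other NTA rats it was between −0.089 and −0.032. The spread within groups placed Aldh1a1 at percentile 98.2 and Adh4 at percentile 97.6 of all features. Aldh2, Aldh9a1 and Aldh3a1, each by its brightest probe, were at percentiles 19.3, 24.2 and 12.0, among the steadier features. NTA replicate 3 was the lowest NTA rat for 7 of the 9 genes and for 37.1% of all features. These 9 genes share arrays and are not independent.

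**Figure D2:**
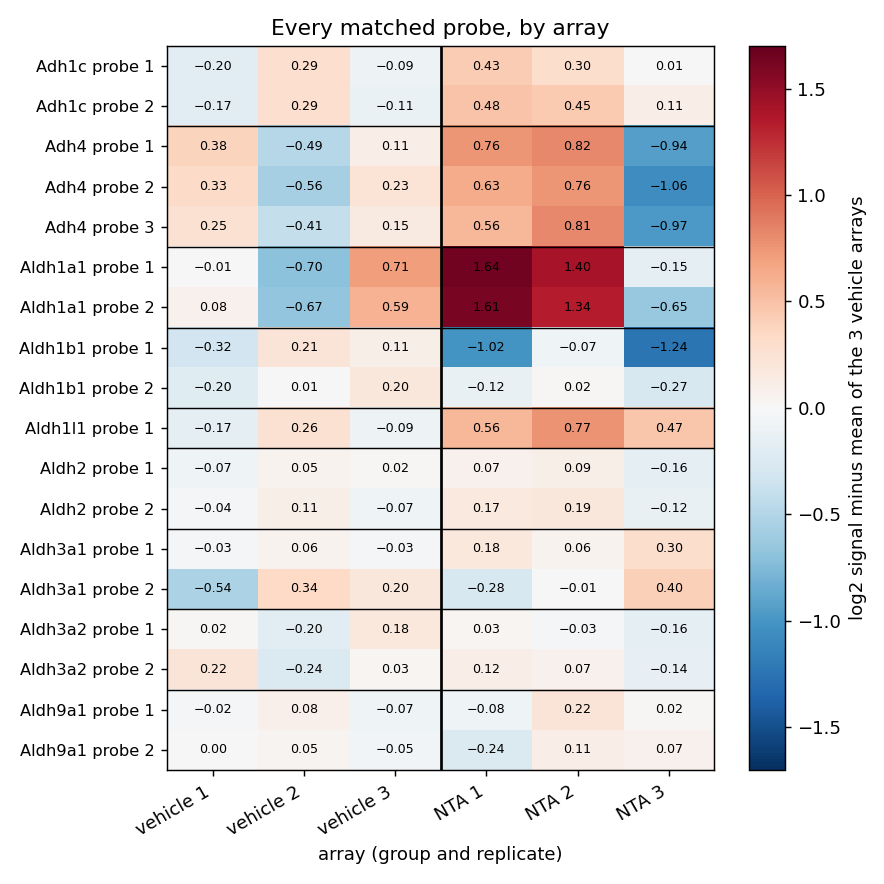
Deviation of each of the 18 matched probes from the mean of the 3 vehicle arrays, in log2 units, with 1 row per probe and 1 column per array; the first probe of a gene is the one used as its value. The 2 Aldh1a1 probes are high in NTA replicates 1 and 2 and below the vehicle mean in NTA replicate 3, the 3 Adh4 probes are lowest in NTA replicate 3, and the 2 Aldh1b1 probes differ, with −1.24 against −0.27 in NTA replicate 3.

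Adh1c, the class I enzyme that does most ethanol oxidation in liver, was at 8.25, 8.74 and 8.35 in the vehicle rats and at 8.87, 8.75 and 8.45 in the NTA rats. The groups overlapped, since vehicle replicate 2 lay above NTA replicate 3. The difference was 1.19-fold with a 95% interval of 0.884 to 1.59 (log2 difference 0.25 with SE 0.18; adjusted p in limma 0.795). The other Adh1c probe gave 0.34. With normexp the difference of Adh1c was 0.41 (SE 0.15; adjusted p in limma 0.446), and it was 0.15 when vehicle replicate 1 was left out and 0.39 when vehicle replicate 2 was. Of the genes next to Adh1c on chromosome 2, the order in the rat gene table is Adh7, Adh1c, Adh6a, Adh6, Adh4 and Adh5 with only noncoding genes and a pseudogene between them. Their log2 differences in that order were 0.22, 0.25, 0.34, 0.07, 0.21 and 0.06 (SE 0.31, 0.18, 0.15, 0.51, 0.50 and 0.11). All were above 0, as were 43.9% of all features, and none passed the threshold (limma, Benjamini-Hochberg adjusted p between 0.686 and 0.986). The sign of Adh4 turned in 3 of the 18 alternatives, and whether these genes change together was not tested. For Adh6a the groups did not overlap, with vehicle rats at −4.38, −3.90 and −3.99 and NTA rats at −3.69, −3.69 and −3.87. Of 13 other family members tested it was the 1 with NTA higher and no overlap, against 5.57% of all features. A pseudogene named Adh1-ps1 lies in this cluster, and whether it adds to the signal of the ADH probes was not tested.

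Aldh2, the main acetaldehyde dehydrogenase of mitochondria, showed the smallest difference of the 9 genes. Its vehicle rats were at 7.31, 7.43 and 7.40 and its NTA rats at 7.45, 7.47 and 7.22. The groups overlapped fully, with the NTA rats spanning the vehicle rats. The difference was 1.00-fold with a 95% interval of 0.828 to 1.21, and it did not pass the test (limma, Benjamini-Hochberg adjusted p = 0.999). The other Aldh2 probe gave a log2 difference of 0.08 (SE 0.13), and with normexp the first probe gave 0.16 (SE 0.094), so wider differences than that interval were also allowed.

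Aldh1b1, which shares the mitochondrial matrix with Aldh2, was the 1 member with an unadjusted p under 0.05 and a lower mean with NTA. The vehicle rats were at −0.93, −0.39 and −0.50 and the NTA rats at −1.63, −0.68 and −1.85. NTA replicates 1 and 3 lay below all vehicle rats, and NTA replicate 2 lay among them. The ratio of NTA to vehicle was 0.583 with a 95% interval of 0.342 to 0.993 (log2 −0.78, SE 0.32; limma, unadjusted p = 0.048, Benjamini-Hochberg adjusted p = 0.656). The second Aldh1b1 probe did not show this difference, with −2.86, −2.65 and −2.46 in the vehicle rats and −2.78, −2.64 and −2.93 in the NTA rats (log2 −0.12, SE 0.14). With the mean of both probes the difference was −0.45. With 1 array left out, the difference of the first probe ran from −1.13 without NTA replicate 2 to −0.55 without NTA replicate 3.

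Aldh3a1, the inducible member, was within a narrow range on all arrays by its first probe. The vehicle rats were at −0.82, −0.73 and −0.81 and the NTA rats at −0.61, −0.72 and −0.49. The groups did not overlap, but vehicle replicate 2 and NTA replicate 2 were at −0.730 and −0.724. The difference was 1.13-fold with a 95% interval of 0.947 to 1.36 (log2 difference 0.18 with SE 0.11; adjusted p in limma 0.748). The second Aldh3a1 probe gave 0.04, its groups overlapped, and with normexp background correction the first gave 0.012. For scale, the glutathione transferase Gstp1, which passed the test, rose 6.51-fold with a 95% interval of 5.02 to 8.45 (limma, Benjamini-Hochberg adjusted p = 0.0064). The upper limit of Aldh3a1, 1.36-fold, lies under the lower limit of Gstp1, and the difference between the 2 genes was not tested.

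**Figure D3:**
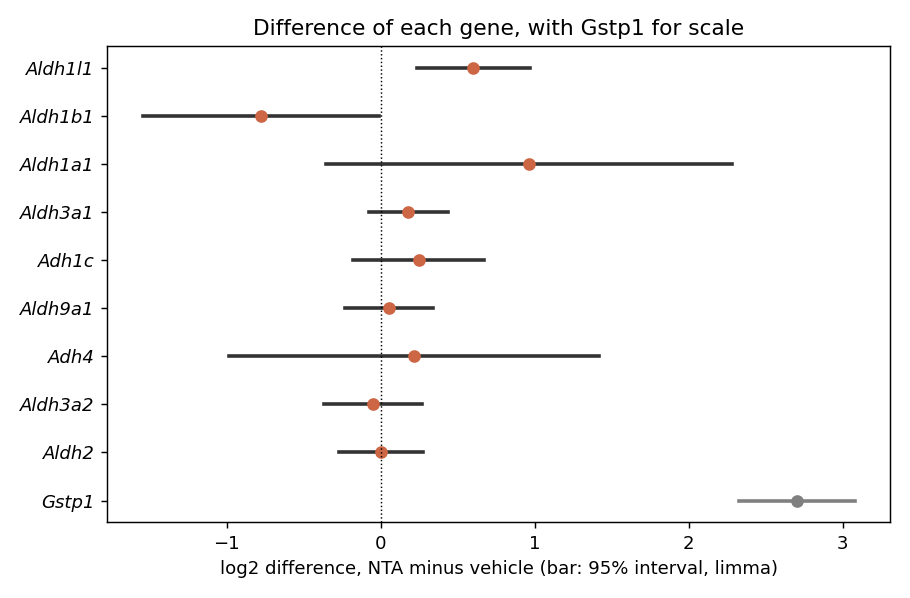
Log2 difference between NTA and vehicle for the 9 genes, with Gstp1 in grey for scale; points are limma estimates from 3 rats per group and bars their 95% intervals, not corrected for the number of genes. The intervals of Aldh1l1 (0.23 to 0.97) and Aldh1b1 (−1.55 to −0.0095) leave out 0, those of the other 7 members cover it, and Gstp1 is at 2.70.

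Aldh3a2 and Aldh9a1 had small differences with narrow intervals. Aldh3a2, the fatty aldehyde dehydrogenase of the endoplasmic reticulum, was at 7.36, 7.14 and 7.51 in the vehicle rats and at 7.37, 7.30 and 7.18 in the NTA rats (log2 −0.05, 95% interval −0.37 to 0.26; limma, Benjamini-Hochberg adjusted p = 0.950). Aldh9a1, of the carnitine pathway, was at 6.92, 7.02 and 6.86 with vehicle and at 6.85, 7.15 and 6.95 with NTA (log2 0.05, 95% interval −0.23 to 0.34; limma, Benjamini-Hochberg adjusted p = 0.939). In both genes the groups overlapped, and in both the second probe gave a difference of the other sign, at 0.02 for Aldh3a2 and −0.02 for Aldh9a1. Of the 8 genes with more than 1 probe, the probes of the other 6 had differences of 1 sign. With each probe as its own feature in limma, 0 of the 18 passed, with a lowest adjusted p of 0.526, against 0.0341% of all 38168 probes tested. At an unadjusted p under 0.05 there were 2 of the 18, against 7.38%. Groups that did not overlap were seen in 2 of the 18 and in 13.4% of all probes, and 14 of the 18 were above 0 against 44.2%. Aldh3a1 and Aldh3a2 are neighbours on chromosome 10, with a noncoding gene and a pseudogene between them, and had log2 differences of 0.18 and −0.05.

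**Figure D4:**
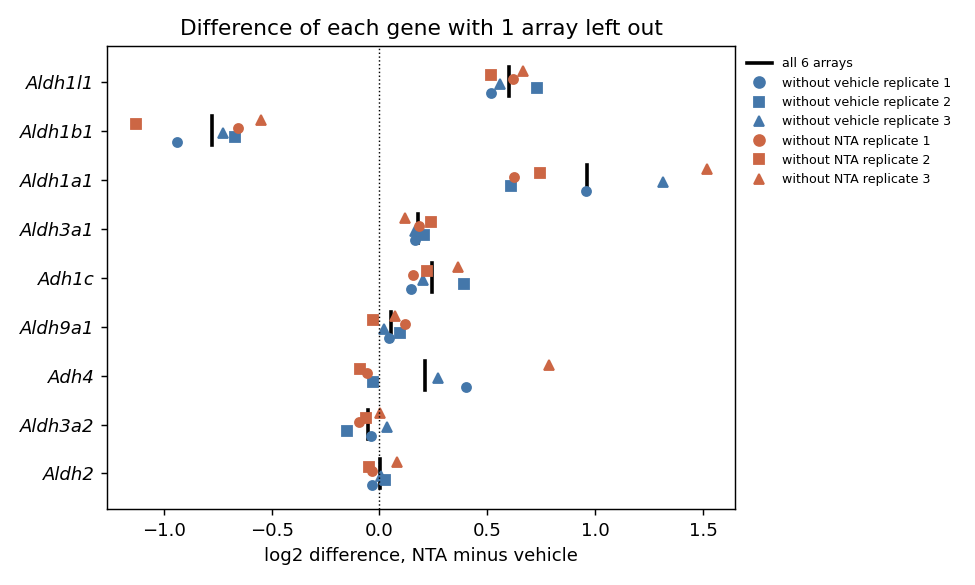
Log2 difference between NTA and vehicle for each gene with all 6 arrays (black bar) and with each array left out in turn (blue for a vehicle array, orange for an NTA array, shape for the replicate number). Without NTA replicate 3 Aldh1a1 moves to 1.52 and Adh4 to 0.79, and Aldh1l1 stays between 0.52 and 0.73.

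Other genes of the 2 families were taken as a list. Of 18 listed, 14 had a probe and 13 were tested. Against 0.0297% and 7.57% of all features, 0 of the 13 passed in limma and 0 had an unadjusted p under 0.05. The 13 genes had a median of 0.06, and 8 were above 0. Their differences ran from −0.26 to 0.60, the highest being Aldh3b1, at −1.16, −0.82 and −1.76 with vehicle and −0.99, −0.78 and −0.17 with NTA (SE 0.30; limma, adjusted p = 0.703). Aldh1a2, the retinaldehyde dehydrogenase of embryos and mesothelium, was not well above background on any array. In the list of other enzymes that handle aldehydes or ethanol, 0 of 19 passed and 4 were higher at an unadjusted p under 0.05, against 3.66% of all features. These were the aldo-keto reductases Akr1b10, Akr7a3, Akr1b8 and Akr1b1, the last 2 named after their values were seen. The other aldo-keto reductases of the list, Akr1a1 and Akr7a2, were at −0.02 and 0.08, and are likewise named after their values were seen. Akr7a3 and Akr1b8 also stand in the list of NRF2 targets below. Akr1b10 was tested only because its NTA arrays were above background, so its p rests on vehicle values below it and its place among the 4 is not counted as support. It was not well above background in any vehicle rat and was at least 2.10-fold higher with NTA, a bound set by the lowest signal above background (measured means −6.82 and −4.16; limma, adjusted p = 0.262). Akr7a3 was 3.03-fold higher (log2 1.60, SE 0.27; limma, adjusted p = 0.377). Cyp2e1, the ethanol-oxidising cytochrome P450, and catalase (Cat), chosen here with their values known, were at 0.16 (SE 0.14) and −0.00 (SE 0.25).

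Genes that share known inducers with members were set beside them. Of 9 AhR targets 5 were tested and 0 passed (0 also at an unadjusted p under 0.05), while Cyp1a1, Cyp1b1 and Ahrr were not well above background on any array. The 2 with the smallest p were Gsta2 at 0.30 (SE 0.15) and Ugt1a6 at 0.26 (SE 0.14), with limma adjusted p of 0.692 and 0.729. Of 22 tested targets of NRF2, the transcription factor of antioxidant defence, 1 passed, Gstp1, against 0.0297% of all features. Gstp1 was named beforehand as the reference change of the series, so its call was known in advance and is not counted as support. In limma 7 of the 22, Gstp1 among them, were higher and 0 lower at an unadjusted p under 0.05. The shares of all features were 3.66% and 3.91%. The median of these targets was 0.24, with 18 above 0 and 4 below. Those below 0 were Nqo1 at −0.19 (SE 0.56), Gclc at −0.00012 (SE 0.17), Gclm at −0.25 (SE 0.35) and Abcc2 at −0.03 (SE 0.14). The choice to list these 4 was made once the differences were known. Of 20 targets of PPAR alpha, a regulator of fatty acid oxidation, 0 passed and 0 had an unadjusted p under 0.05, with a median of −0.01. The summed signal of these 20, in multiples of the array's 75th percentile, was low in vehicle replicate 2 (3027) and NTA replicate 3 (2939). It was 3854 to 4367 in the other arrays. Vehicle replicate 2 and NTA replicate 3 were also lowest of their groups for Aldh1a1, Adh4 and Aldh3a2. For Aldh1l1, Aldh1b1, Aldh3a1, Adh1c, Aldh9a1 and Aldh2, vehicle replicate 2 was instead the highest vehicle rat. This comparison was made once the values were known. The part of the PPAR alpha targets in the values of the members was not tested. The 2 smallest p values of the list belonged to Acot2 at −0.54 (SE 0.26) and Cpt1a at 0.45 (SE 0.28), both with limma adjusted p above the threshold, at 0.692 and 0.757.

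Markers of liver cells differed between the groups in part, and their part in the values above was not tested. Over all features 43.9% were above 0, and 3.66% were higher and 3.91% lower at an unadjusted p under 0.05 in limma. Of the listed markers 12 of 16 were tested for sinusoidal endothelium, 15 of 16 for macrophages and 8 of 10 for erythroid cells. For B and plasma cells 5 of 8 were tested, for stellate cells 13 of 14, and for biliary epithelium 7 of 10. All 12 hepatocyte markers were above background on these arrays labelled as liver. Below 0 were 11 of them, 1 at an unadjusted p under 0.05 in limma, with a median of −0.15 over the 12 markers. Their summed signal, in multiples of the array's 75th percentile, was 7002 to 7375 with vehicle and 6140 to 6557 with NTA. Of 12 sinusoidal endothelium markers 12 were above 0 and 8 had an unadjusted p under 0.05, with sums of 78.1 to 94.9 and 104.4 to 115.8. Erythroid markers, 7 of 8 above 0 and 3 with an unadjusted p under 0.05, with Gata1 not above background anywhere, had sums of 3.48 to 4.23 and 5.95 to 8.00. Kupffer cell and macrophage markers were above 0 in 15 of 15, with 2 at an unadjusted p under 0.05 and overlapping sums of 152 to 300 and 214 to 417. B and plasma cell markers were above 0 in 5 of 5 with a median of 0.74, and 3 had an unadjusted p under 0.05. Their sums of 1.91 to 2.49 and 2.35 to 2.94 overlapped, and Pax5 of this list had a difference of 0.03. Stellate cell and fibroblast markers (5 of 13 above 0) and biliary markers (5 of 7) had medians of −0.12 and 0.07, and their sums overlapped, at 41.9 to 45.7 and 37.4 to 57.5, and at 1.94 to 2.84 and 2.16 to 2.57. Lum of the first list and Sctr of the second were not above background anywhere. Markers of hepatocytes near the central vein and near the portal tract had medians of 0.16 over 9 genes and −0.13 over 9. Above 0 were 6 of the first 9 and 2 of the second. At an unadjusted p under 0.05 in limma 1 of the first was higher, Rhbg at 0.87 (SE 0.28), and 0 of the second. The sums of both lists overlapped between the groups, and Cyp2e1, the brightest of the first list, weighs most in its sum. In all of these marker lists limma called 0 genes, against 0.0297% of all features.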

How the data were processed

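Liver RNA of 6 rats, 3 per group by the labels' treatment field, was measured on one-colour Agilent arrays of design 035170. Scanner files came from Agilent Feature Extraction 10.7.1.1 on build rn4, per the file headers, and 10.7, per the submitters' processing notes. The authors deposited the processed signal, a background-subtracted intensity, with spot and local background intensities and 0 or 1 flags of another kind. The deposited series table holds a ratio, that signal over the array's 75th percentile, to which 100.0% of probes fitted within 0.0001 plus 0.2%. Between 62.4% and 64.5% of 61657 non-control probes were well above background per array, and the 75th percentile of signal was 464 to 558. The number of arrays limits the precision. Vehicle replicate 3 had its own slide and day of scanning and a lower local background.

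Values here are log2 of the processed signal minus log2 of the array's 75th percentile, computed from the deposited intensity. Spots flagged non-uniform (1 to 14 per array) were set to missing. Probes above background on all 3 arrays of a group were kept, accessions were matched to RefSeq genes of GRCr8 (27460 probes with 1 symbol, 34197 with none), and the brightest probe stood for a gene. NTA and vehicle were compared in limma 3.58.1 (R 4.3.3; lmFit, eBayes, two-sided, Benjamini-Hochberg over all 30353 features, threshold 0.05; 4 residual and 2.54 prior degrees of freedom). Confidence intervals are at 95%. An exact test of 3 against 3 cannot go below 0.1 and was not used. The fit was tested on simulated data. Every member is named; from each related list, those past the threshold or the 2 with the smallest p, and the 3 genes most alike to the member with the smallest p. The members and lists were chosen with earlier results of these data known. The 18 alternatives covered background correction, scaling, filter, probe choice, variance model, slide, scan day, replicate number and each array left out. Normexp used the median spot signal.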

Additional observations from a re-analysis of the deposited data

How the results depend on the processing

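In all 18 alternatives limma called 0 member genes. Aldh1l1, Aldh1b1, Aldh1a1, Aldh3a1 and Adh1c kept their direction in all 18, and the sign of the other 4 genes turned in at least 1. Both filters, each probe as a feature, the other variance model and the replicate block leave a member's difference as it was by construction. The mean of probes does so for Aldh1l1, and scan day as a block gives the same difference as leaving out vehicle replicate 3. The deposited series table holds nearly the same values, median scaling moves every gene by the same amount, and the slide block had a correlation of −0.0060. In these settings Aldh1l1 was at 0.600, 0.607 and 0.600, against 0.601 in the main setting, so they are close repeats of it. Adh4 was at −0.032 without vehicle replicate 2, −0.058 without NTA replicate 1 and −0.089 without NTA replicate 2. Aldh2 was at −0.034 without vehicle replicate 1, −0.032 without NTA replicate 1 and −0.046 without NTA replicate 2. Aldh3a2 was at 0.036 with scan day as a block or without vehicle replicate 3, and at 0.00055 without NTA replicate 3. Aldh9a1 was at −0.10 with normexp and −0.030 without NTA replicate 2. With 1 array left out these 4 genes ran from −0.089 to 0.79 (Adh4), −0.046 to 0.081 (Aldh2), −0.15 to 0.036 (Aldh3a2) and −0.030 to 0.12 (Aldh9a1). The cause of these turns was not tested. With 1 array left out, the median over the members ran from −0.030 to 0.17 and the calls over all features from 2 to 10, against 9 with all arrays.

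Arrays with the same replicate number did not deviate together in all pairs (correlations of deviations 0.17, −0.0064 and −0.075; 2 of 6 arrays correlated best with their own number), so the number was taken as a name. With it as a replicate block limma called 0 features and 0 members, and the median over the members was 0.18. All 18 probes were above background throughout.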
